A study of Mus musculus with 12 samples.

Results

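The 40 genes described here encode the core machinery of DNA replication, and their messenger RNA was followed through the closing neural tube of the mouse embryo. They were taken from a list of gene names that covers origin recognition, licensing, helicase activation, DNA synthesis and the supply of deoxynucleotides and is defined by gene name and function, with no threshold on a measured value. For each gene the brightest of the probe sets naming that gene alone was used, which made the members 40 of 18193 genes tested. Neural tubes were dissected from ICR (CD-1) mouse embryos, an outbred stock, on gestation days GD8.5, GD9.0 and GD9.5, counted from the morning of the vaginal plug as GD0. No embryo was treated and no allele was altered, and stage is the only labelled difference between the groups. Each stage has 4 samples labelled as biological replicates, and 100 ng of RNA per sample was hybridised to Affymetrix mouse genome arrays. The labels do not say whether a replicate is 1 embryo, 1 litter or a pool, so the p-values measure the spread between these samples. Values are log2 signal levels, and the comparisons used 10 arrays: GD8.5 replicates 3 and 4, and all 4 replicates of GD9.0 and of GD9.5. The values of GD8.5 replicates 1 and 2 are on a linear scale (array medians 92.2 and 98.3, against 1.75 to 1.82 for the log2 arrays), so these arrays entered only an alternative with all 12.

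A chromosome is copied from many origins, each prepared before S phase and used once. The origin recognition complex (ORC, Orc1 to Orc6) binds the origin, and Cdc6 and Cdt1 then load the ring-shaped MCM helicase (Mcm2 to Mcm7) around the DNA, a step called licensing that geminin (Gmnn) blocks by binding Cdt1. At the start of S phase Cdc45 and the GINS complex (Gins1 to Gins4) join the ring, with Mcm10, to make the active helicase, and RPA coats the single strands that it exposes. Primase and polymerase alpha lay down primers, the clamp loader RFC puts the PCNA clamp on them, polymerases delta and epsilon extend them, and Fen1 and DNA ligase 1 join the lagging-strand pieces. Ribonucleotide reductase (Rrm1 and Rrm2) makes the deoxynucleotides. Neural tube cells at these stages are largely proliferating progenitors, and the first neurons leave the cell cycle.

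The arrays of the 3 stages also differed in tissue markers and in RNA measures. All 16 neural progenitor markers (among them Sox2, Pax6 and Nes) were above background at every stage, and all 16 were higher at GD9.5 than at GD8.5. Their summed level, in linear units (2 raised to the log2 level), went from 1696 to 1698 at GD8.5 through 2514 to 2664 at GD9.0 to 4084 to 4403 at GD9.5. Cardiac muscle markers summed to 1570 to 1616, 199 to 211 and 49 to 52 over the same stages; all 18 were above background at GD8.5, and at GD9.5 9 of them were at or under it, among them Myh6, Tnnt2 and Nppa. Endoderm and yolk sac markers summed to 2233 to 2277, 404 to 425 and 121 to 126, with 4 of 17 (Apob, Amn, Cubn and Foxa3) at or under background at GD9.5. Neuron markers rose from 250 to 256 at GD8.5 to 837 to 887 at GD9.5, and erythroid markers from 2207 to 2241 to 10232 to 10790. The difference between the 3′ and 5′ actin control probes was 0.70 to 0.72 at GD8.5, lower at GD9.0 (0.53 to 0.59) and higher at GD9.5 (0.90 to 0.97), on the log2 scale, and the 18S probe likewise read 9.82 to 9.83, 8.65 to 9.05 and 10.2 to 10.4. The part of these shifts in the changes given here was not tested. In such bulk samples, fewer cells of a type and less RNA per cell cannot be told apart.

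Promoters of replication genes are known to carry binding motifs for E2F, the factor family that the retinoblastoma protein restrains, and for NF-Y, which binds CCAAT. RefSeq windows of build GRCm38.p6, from 250 bases before to 50 after a gene's start, were at hand for 32 of the 40 members. Either of 2 E2F motifs, TTTCCCGC or TTTGGCGC on either strand, occurred in windows of 11 of the 32 members (34.4%), against 1.80% of 27025 genes with a window and 2.77% of the 14452 of them that were tested here. CCAAT on either strand occurred in 22 of 32 members (68.8%), against 41.1% of all genes with a window. None of the 13 E2F matches overlapped another or a CCAAT match. The whole windows of Mcm3 (chr1:20820263-20820562, minus strand), Cdt1 (chr8:122567765-122568064, plus strand) and Pola1 (chrX:93632106-93632405, minus strand) are printed because these are the members with a motif that rose from GD9.0 to GD9.5. The window of Orc1 (chr4:108579204-108579503, plus strand), the member that fell most, follows them. It holds neither of these 2 E2F motifs, and other forms of the E2F site were not searched for. Capitals mark the E2F motif on the strand of the gene.
Mcm3: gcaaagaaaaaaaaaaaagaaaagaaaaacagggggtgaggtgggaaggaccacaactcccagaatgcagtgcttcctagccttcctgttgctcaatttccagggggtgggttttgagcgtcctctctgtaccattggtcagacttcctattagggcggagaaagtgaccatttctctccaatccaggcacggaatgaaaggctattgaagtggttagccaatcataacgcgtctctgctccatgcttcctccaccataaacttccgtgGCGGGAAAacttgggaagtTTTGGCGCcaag
Cdt1: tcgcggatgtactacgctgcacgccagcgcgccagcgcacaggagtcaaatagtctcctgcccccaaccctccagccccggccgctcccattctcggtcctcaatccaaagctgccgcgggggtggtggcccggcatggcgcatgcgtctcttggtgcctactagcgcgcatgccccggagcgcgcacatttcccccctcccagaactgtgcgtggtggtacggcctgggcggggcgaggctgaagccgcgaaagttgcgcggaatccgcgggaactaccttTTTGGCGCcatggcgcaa
Pola1: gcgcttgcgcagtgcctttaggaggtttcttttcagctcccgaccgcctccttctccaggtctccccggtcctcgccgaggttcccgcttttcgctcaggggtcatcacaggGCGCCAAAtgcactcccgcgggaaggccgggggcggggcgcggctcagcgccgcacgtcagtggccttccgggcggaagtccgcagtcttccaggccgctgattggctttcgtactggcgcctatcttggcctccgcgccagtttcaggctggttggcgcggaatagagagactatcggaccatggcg
Orc1: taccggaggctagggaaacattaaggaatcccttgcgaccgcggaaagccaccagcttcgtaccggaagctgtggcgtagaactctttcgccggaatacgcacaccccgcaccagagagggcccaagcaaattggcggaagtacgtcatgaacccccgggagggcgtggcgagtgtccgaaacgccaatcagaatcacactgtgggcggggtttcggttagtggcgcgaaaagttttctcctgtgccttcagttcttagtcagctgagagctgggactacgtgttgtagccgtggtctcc

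For the other members with a match, the 8 bases of the motif and up to 10 bases to each side are given; the search set the motif, and the flanks differ between genes.
Cdc6: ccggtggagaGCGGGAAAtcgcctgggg
Gins3: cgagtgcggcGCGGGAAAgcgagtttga
Mcm5: aagaactttcGCGCCAAAacgtccagcc
Mcm6, upper site: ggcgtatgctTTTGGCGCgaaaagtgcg
Mcm6, lower site: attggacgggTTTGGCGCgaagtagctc
Mcm7: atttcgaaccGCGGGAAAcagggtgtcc
Orc3: catgcctcccTTTCCCGCacgccccgcc
Pold1: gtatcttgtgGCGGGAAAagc
Rfc3: tttcgcgctcGCGGGAAAactctactgt
From GD9.0 to GD9.5, 3 of the 11 members with an E2F match rose (Mcm3, Cdt1 and Pola1) and 2 fell (Cdc6 and Mcm7), where 14.1% of all genes were called higher, 10.3% lower and 43.4% of genes with a mean level above 5 either way. Of the 21 members with a window and no match, 3 rose (Rfc4, Lig1 and Rrm1) and 3 fell (Orc1, Orc2 and Cdc45). A match is a description of letters and not a measured binding site. A window without a match may hold another form of the E2F site, since only the 2 motifs were searched for.

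All 40 members were well above the background level of 1.42, the 95th percentile of 39 olfactory receptor genes, with means from 5.01 for Gins3 to 11.3 for Pcna. Replicates lay close together, with a median within-stage standard deviation (SD) over members that was 0.027 for GD8.5, 0.055 for GD9.0 and 0.049 for GD9.5. Stage changes were small: 38 of 40 members had the 95% interval of each of the 3 stage changes inside 1.5-fold either way, as did 13911 of the 18193 genes. Rrm1 and Rfc4 were the 2 others, with intervals for GD9.5 over GD8.5 that reached log2 0.64 and 0.61. The summed linear level of the 40 genes was 13385 to 13511 at GD8.5, 13512 to 13895 at GD9.0 and 13914 to 14057 at GD9.5. Within this narrow range the members went different ways. The stage means rose at both steps for 13 members and fell at both for 9, were highest at GD9.0 for 13 and lowest at GD9.0 for 5. Over all genes the shares of these 4 shapes were 22.6%, 24.9%, 26.9% and 25.6%.

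**Figure D1:**
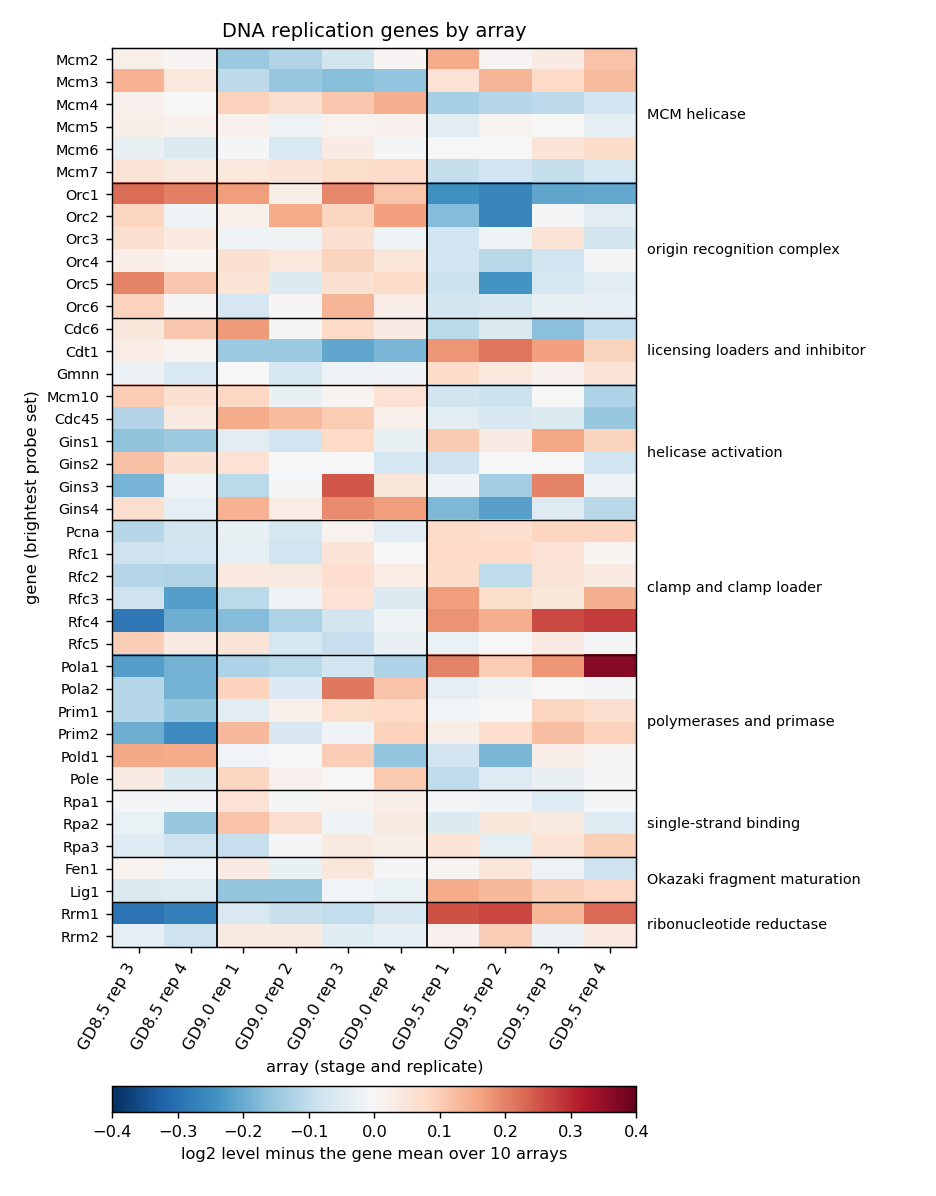
Heat map of the 40 genes (rows, grouped by role) in the 10 log2 arrays (columns, by stage and replicate). Colour is the log2 level minus the gene's mean over the 10 arrays, from -0.4 to 0.4; Rrm1, Rfc4 and Pola1 are highest in the 4 GD9.5 arrays and Orc1 lowest, while Fen1 and Mcm5 show little colour in any array.

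Between GD8.5 and GD9.0, Prim2, the large subunit of primase, and Rrm1 rose, and Mcm3 fell. Thus 2 of 40 members were called higher and 1 lower at an adjusted p below 0.05 (limma, Benjamini-Hochberg over all genes), a share of 7.5% where 13.5% of all genes were called (6.78% higher, 6.74% lower). Genes in the range of these members, with a mean above 5, were called in 20.6% of cases. The median change of the members was 0.05, against -0.002 for all genes. The median size of a change was 0.093, against 0.110 for all genes and 0.111 for genes with a mean above 5. The arrays of the 2 stages did not overlap for 13 members on the higher side and 7 on the lower, which with 2 arrays at GD8.5 was also true of 17.6% and 16.9% of all genes. None of the 3 calls held in all 10 fits that left out 1 array. The counts were 0 higher and 0 lower without either GD8.5 replicate 3 or replicate 4, and no member was called higher without GD9.0 replicate 1 or replicate 4. The calls of all genes also fell, to 4.24% higher and 4.14% lower without GD8.5 replicate 3. They were 3.46% and 4.16% without GD8.5 replicate 4. Without GD9.0 replicate 1 or replicate 4, 6.01% and 5.77% of all genes were called higher. Centring the arrays on the probe sets above background gave 1 higher and 1 lower (5.93% and 7.56% of all genes).

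Between GD9.0 and GD9.5, 6 members rose and 7 fell. Cdt1 (log2 change 0.33), Pola1 (0.32), Rfc4 (0.32), Rrm1 (0.30), Mcm3 (0.25) and Lig1 (0.20) rose. Orc1 (-0.35), Gins4 (-0.27), Orc2 (-0.23), Mcm4 (-0.21), Cdc6 (-0.18), Cdc45 (-0.18) and Mcm7 (-0.15) fell. The members were called in 32.5% of cases, beside 24.3% of all genes (14.1% higher, 10.3% lower) and 43.4% of genes with a mean above 5. The median change was -0.03 and the median size 0.102, against -0.008 and 0.114 over all genes. For genes with a mean above 5 the median size was 0.148. Arrays of the 2 stages did not overlap for 9 members on the higher side and 10 on the lower, against 15.1% and 11.9% of all genes. The calls of Cdt1, Pola1, Rfc4, Rrm1, Mcm3, Lig1, Orc1, Gins4 and Mcm4 held in all 10 fits that left out 1 array, and those of Orc2, Cdc6, Cdc45 and Mcm7 did not. For this step the 2 fits that left out a GD8.5 array are the same fit. The count of members called lower was 3 without GD9.0 replicate 3 (9.16% of all genes) or without GD9.5 replicate 1 (8.59%). It was 4 without GD9.0 replicate 2 (9.15%), GD9.5 replicate 3 (8.93%) or GD9.5 replicate 4 (9.05%). With the arrays centred on their medians, 7 members were higher and 3 lower (15.2% and 8.10% of all genes), and with the probe sets above background as the centre 6 were higher and 9 lower (11.8% and 13.1% of all genes).

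Over the whole day, from GD8.5 to GD9.5, 7 members rose and 2 fell. Rrm1 (0.51), Rfc4 (0.46), Pola1 (0.41), Prim2 (0.30), Rfc3 (0.26), Gins1 (0.25) and Pcna (0.17) rose, and Orc1 (-0.44) and Orc5 (-0.26) fell. The share called was 22.5%, beside 28.6% of all genes (15.5% higher, 13.1% lower) and 44.9% of genes with a mean above 5. The median size of a change was 0.132, against 0.145 over all genes and 0.180 over genes with a mean above 5. The median change was 0.04, against -0.016 over all genes. Arrays of GD8.5 and GD9.5 did not overlap for 17 members on the higher side and 13 on the lower, against 23.2% and 22.7% of all genes. Rrm1, Rfc4, Pola1 and Orc1 stayed called in all 10 fits that left out 1 array. The higher calls came to 3 without GD8.5 replicate 4, where 10.7% of all genes were called higher. The lower calls came to 1 without GD8.5 replicate 3, where 9.10% of all genes were called lower. The balance of higher and lower calls moved with the centre of the arrays, as it did over all genes: 10 were higher and 1 lower after centring on array medians, where 17.0% of all genes were higher and 10.6% lower. With the probe sets above background as the centre, 6 were higher and 9 lower, beside 12.6% and 17.5% of all genes.

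**Figure D2:**
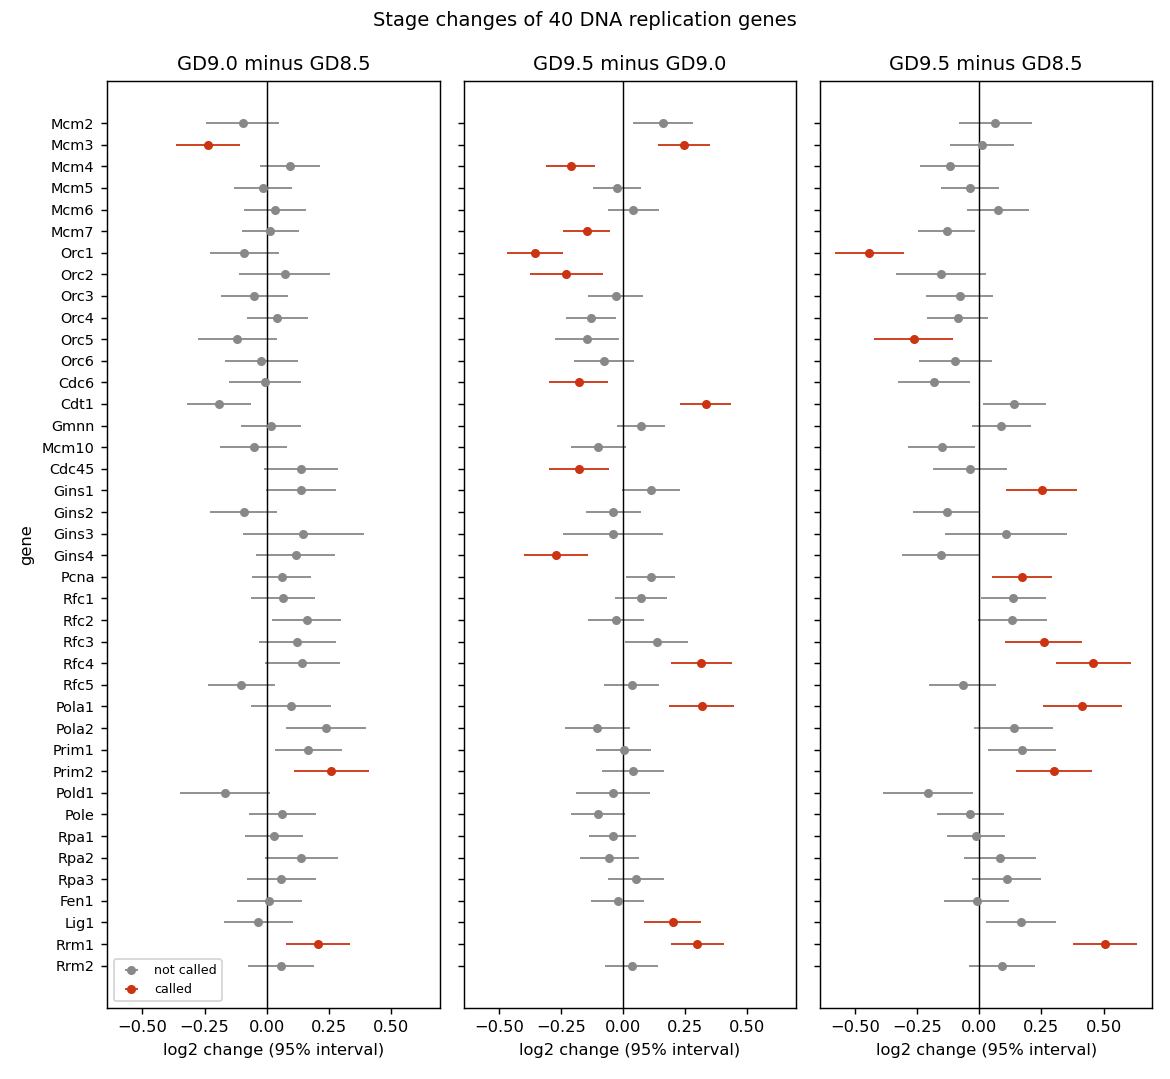
Log2 change of each of the 40 genes (rows) in the 3 stage comparisons (panels), with the 95% interval from the limma fit as a bar; red marks an adjusted p below 0.05. The points lie between -0.44 and 0.51, and the red points of the middle panel fall on both sides of 0 (6 higher, 7 lower).

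The 40 members had 89 probe sets that name 1 gene, and 30 members had more than 1. Of the called members with several, 1 of 3 had at least 2 probe sets called the same way in the first step, 6 of 10 in the second and 4 of 7 over the day. Calls of a member in opposite directions within 1 comparison occurred only for Mcm3 among these 30, in the second step and in the contrast of steps (the second change minus the first). Over all probe sets that name 1 gene, 4.95% were called higher and 4.33% lower in the first step, 10.7% and 8.62% in the second, 12.2% and 9.86% over the day, and 4.56% and 3.78% in the contrast of steps. Calls of single probe sets in the paragraphs that follow come from the fit adjusted over all probe sets.

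The origin recognition complex marks where replication can begin, and 2 of its 6 members, Orc1 and Orc5, were lower at the end of the day than at its start. By their brightest probe sets all 6 had a change below 0 from GD9.0 to GD9.5 and again from GD8.5 to GD9.5. So had 9432 and 9711 of all 18193 genes. In each comparison 2 of the 6 were called lower and none higher. Of all genes 10.3% were called lower in the last step and 13.1% over the day. Of genes with a mean above 5 these shares were 20.7% and 19.9%. All 6 also lay below 0 in both comparisons under each of the 3 other scalings tried (array medians, probe sets above background, a further quantile normalization). This did not hold with another choice of probe set. With the probe set of largest spread, Orc2 (0.21), Orc3 (0.37) and Orc4 lay above 0 in the last step. That Orc4 probe set read 4.01 to 4.26 at GD9.0 and 4.24 to 4.36 at GD9.5, and it also lay above 0 over the day (0.38). Orc1, the subunit whose level is known to follow the cell cycle, read 5.91 and 5.88 at GD8.5, 5.85, 5.71, 5.87 and 5.79 at GD9.0, and 5.44, 5.42, 5.47 and 5.48 at GD9.5. All 4 GD9.5 arrays were below the other 6 arrays. The change from GD9.0 to GD9.5 was -0.35 ± 0.05 (standard error, SE), a 1.28-fold fall with an adjusted p of 0.000445 in the limma fit. Over the day the fall was 1.36-fold (log2 -0.44 ± 0.06, limma adjusted p = 0.000261). The second Orc1 probe set, at a mean level of 3.54, also fell between GD9.0 and GD9.5 (-0.52, called over all probe sets).

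Orc2 read 6.73 and 6.63 at GD8.5, 6.67, 6.80, 6.73 and 6.81 at GD9.0, and 6.47, 6.38, 6.64 and 6.60 at GD9.5. The last 2 stages did not overlap, and the change was -0.23 ± 0.07 (limma adjusted p = 0.0298), a call that was lost without any 1 of GD9.0 replicates 2, 3 and 4 and GD9.5 replicates 1 and 2. Its 3 probe sets differed: the second fell by 0.29 and was called, and the dimmest changed by 0.21 and was not called. Orc5 read 7.13 and 7.03 at GD8.5, 6.98, 6.87, 6.99 and 7.0 at GD9.0, and 6.84, 6.69, 6.86 and 6.88 at GD9.5, so the GD8.5 arrays were the highest and the later stages overlapped only by the highest GD9.5 and the lowest GD9.0 array. Its change over the day was -0.26 ± 0.07 (limma adjusted p = 0.0178; not called without GD8.5 replicate 3). Orc3, Orc4 and Orc6 were called in no comparison, with changes over the day of -0.08, -0.09 and -0.10 by their brightest probe sets. A dimmer Orc4 probe set, at a level of 4.15, rose by 0.38 over the day and was called. One dim Orc3 probe set, at a level of 3.67, fell by 0.68 to GD9.0 and rose by 0.37 to GD9.5 while the brightest one was not called at either step.

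Licensing is controlled by the loader Cdt1 and its inhibitor geminin, and only Cdt1 of the pair was called. Cdt1 read 8.56 and 8.54 at GD8.5, 8.38, 8.38, 8.32 and 8.35 at GD9.0, and 8.71, 8.75, 8.69 and 8.62 at GD9.5. The 4 GD9.0 arrays were the lowest, the 4 GD9.5 arrays the highest, and no stages overlapped. The step down to GD9.0 missed the threshold (-0.19 ± 0.06, limma adjusted p = 0.0529), and the step up to GD9.5 passed it (0.33 ± 0.05, 1.26-fold, limma adjusted p = 0.000407). A second probe set of Cdt1, with a level of 6.99, was called in both steps, at -0.29 and 0.37, and the dimmest was below background at 1.18.

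Gmnn read 8.52 and 8.48 at GD8.5, 8.54, 8.48, 8.52 and 8.53 at GD9.0, and 8.62, 8.59, 8.56 and 8.60 at GD9.5. Its GD9.5 arrays were all above the rest, but the change of 0.07 from GD9.0 was not called (limma adjusted p = 0.291, 95% interval -0.03 to 0.17). Within each array, Cdt1 minus Gmnn was 0.04 to 0.06 at GD8.5, -0.20 to -0.09 at GD9.0 and 0.02 to 0.16 at GD9.5. The shift of 0.26 between the last 2 stages had a two-sided p of 0.0286 in an exact permutation test, the smallest that 4 arrays against 4 allow. The test used the same arrays in which Cdt1 was called without overlap, so it adds no support beyond that call. Other differences within arrays given here were chosen after their values were seen and are descriptions without a test. Cdc6, the ATPase that works with Cdt1, was lower at GD9.5 (7.22 to 7.33) than at GD9.0 (7.39 to 7.56) with a change of -0.18, and its call was lost without any 1 of 5 arrays (GD9.0 replicates 1 and 3, GD9.5 replicates 1, 3 and 4).

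The MCM ring is built of 6 different subunits in equal number, yet their probe sets did not move together. By their brightest probe sets, 1 of 6 was called higher (Mcm3) and 2 lower (Mcm4 and Mcm7) from GD9.0 to GD9.5. Over the whole day none of the 6 was called by those probe sets. In the last step 14.1% of all genes were called higher and 10.3% lower. Of genes with a mean above 5 the shares were 22.7% and 20.7%. Centring on array medians gave 2 higher and 1 lower in the last step and centring on probe sets above background gave 2 lower over the day, shifts of centre that move the calls of all genes in the same directions (given above). Mcm4 read 9.37 and 9.35 at GD8.5, 9.44, 9.42, 9.46 and 9.50 at GD9.0, and 9.22, 9.24, 9.25 and 9.28 at GD9.5. GD9.0 was the highest stage and GD9.5 the lowest, with no overlap, and the last step was -0.21 ± 0.04 (limma adjusted p = 0.00505). A second Mcm4 probe set of like brightness (9.07) changed by 0.02 in that step and was not called, so the fall of Mcm4 rests on 1 of 2 probe sets. Mcm7 fell from 10.64 to 10.68 at GD9.0 to 10.50 to 10.53 at GD9.5, a change of -0.15 that was called with all arrays, but not without any 1 of GD9.0 replicates 2, 3 and 4 and GD9.5 replicates 1, 3 and 4. Other Mcm7 probe sets, at levels of 9.12 and 8.68, fell by 0.36 and 0.22 in that step and were called, and the first of them was also called lower over the day (-0.23) and in the contrast of steps (-0.49).

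Mcm3 is uncertain, since its probe sets were called in opposite directions. The brightest, 1420028_s_at, read 8.64 and 8.54 at GD8.5, 8.40, 8.35, 8.33 and 8.34 at GD9.0, and 8.56, 8.64, 8.58 and 8.63 at GD9.5. The GD9.0 arrays were below all others, and GD8.5 and GD9.5 overlapped. Its steps were -0.24 ± 0.06 (limma adjusted p = 0.0203, lost without GD8.5 replicate 3 or 4) and 0.25 ± 0.05 (limma adjusted p = 0.0029). The probe sets 1449705_x_at and 1426652_at rose in the second step as well, by 0.20 and 0.25. In contrast, 1426653_at, with a mean level of 6.21, changed by -0.01 in the first step and by -0.50 in the second, a call over all probe sets in the other direction. Within each array, 1420028_s_at minus 1426653_at was 1.92 to 1.98 at GD9.0 and 2.54 to 2.79 at GD9.5, a shift of 0.74. The dimmest probe set, 1420029_at, at a level of 2.46, fell by 0.38 in the first step and was not called in the second. Over the whole day 2 of the 5 probe sets, 1426653_at and 1420029_at, were called lower and none higher. The names ending in _s_at and _x_at belong to probe sets that may also detect other transcripts, but 1426652_at is not of that kind. Where the 5 probe sets lie along the transcript was not analysed here.

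By their brightest probe sets the other subunits were called in no comparison. Mcm5 read 9.63 and 9.62 at GD8.5, 9.62, 9.58, 9.62 and 9.62 at GD9.0, and 9.56, 9.62, 9.60 and 9.57 at GD9.5, a total span of 0.07 over 10 arrays. Its change over the day was -0.04, with a 95% interval of -0.16 to 0.08. Mcm6 changed by 0.07 over the day and Mcm2 by 0.06. A second Mcm6 probe set, at a level of 8.48, rose by 0.28 from GD9.0 to GD9.5 and was called. The step of Mcm2 from GD9.0 to GD9.5 missed the threshold narrowly (0.16 ± 0.05, limma adjusted p = 0.0542).

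**Figure D3:**
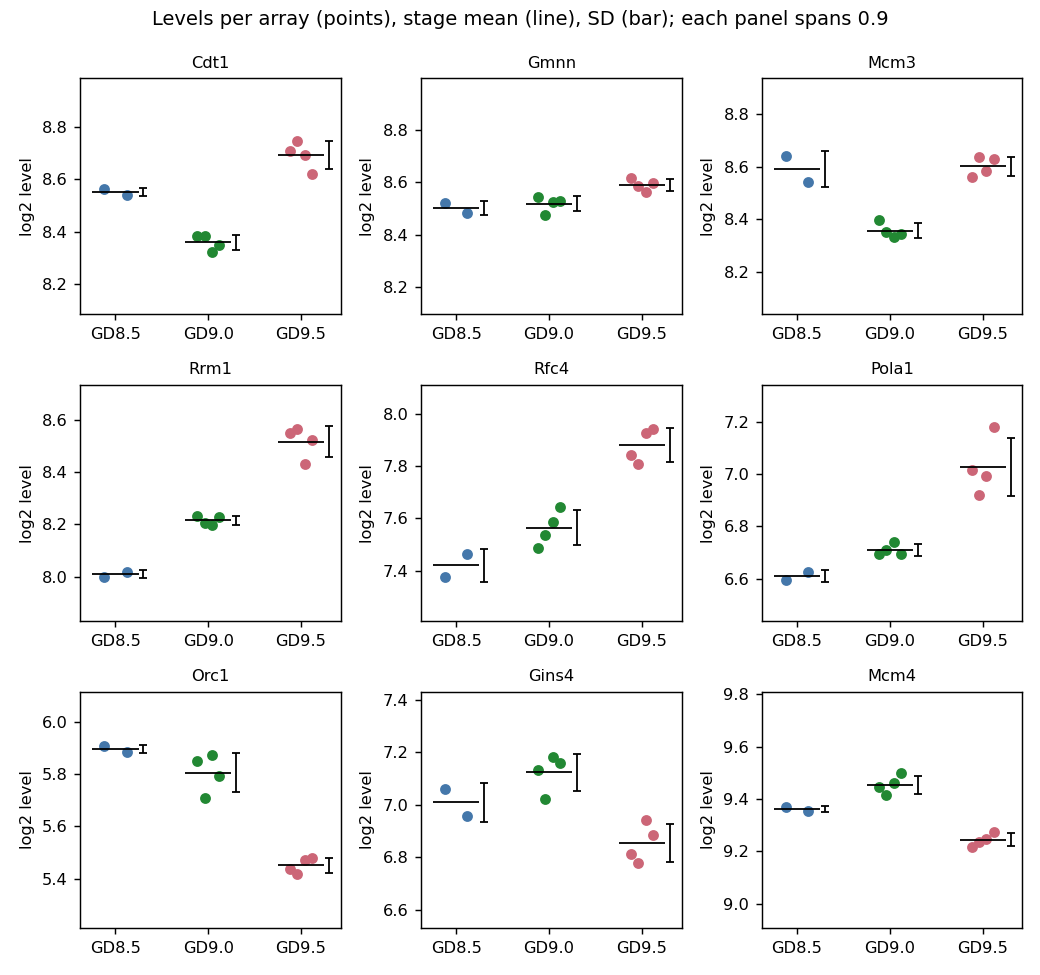
Log2 level of 9 members in each of the 10 arrays (points), by stage, with the stage mean (line) and SD (bar; n = 2, 4 and 4); each panel spans 0.9 on the log2 axis. Cdt1 and Mcm3 are lowest in the 4 GD9.0 arrays, Rrm1, Rfc4 and Pola1 highest and Orc1, Gins4 and Mcm4 lowest in the 4 GD9.5 arrays, and Gmnn stays between 8.48 and 8.62.

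In helicase activation, Gins4 and Cdc45 fell from GD9.0 to GD9.5 and Gins1 rose over the day. Gins4, a subunit of GINS, read 7.06 and 6.96 at GD8.5, 7.13, 7.02, 7.18 and 7.16 at GD9.0, and 6.81, 6.78, 6.94 and 6.88 at GD9.5. The GD9.5 arrays were the 4 lowest, and the last step was -0.27 ± 0.06 (limma adjusted p = 0.00557). Gins1, another subunit, read 7.13 and 7.15 at GD8.5, 7.25, 7.21, 7.37 and 7.27 at GD9.0, and 7.40, 7.33, 7.45 and 7.38 at GD9.5. Its rise over the day was 0.25 ± 0.06 (limma adjusted p = 0.0126), a call lost without GD8.5 replicate 3 or replicate 4. Within each array, Gins1 minus Gins4 was 0.11 to 0.19 at GD9.0 and 0.50 to 0.59 at GD9.5, a shift of 0.38. By their brightest probe sets Gins2 and Gins3 were called in no comparison, with changes over the day of -0.13 and 0.11, and a second Gins2 probe set, at a level of 6.42, fell by 0.16 from GD9.0 to GD9.5 and was called. Cdc45, which completes the active helicase, fell from 5.92 to 6.04 at GD9.0 to 5.75 to 5.85 at GD9.5 (-0.18, limma adjusted p = 0.0369), and this call was lost without any 1 of 7 of the 8 arrays of those stages, all but GD9.0 replicate 4. Mcm10 was called in no comparison and changed by -0.15 over the day.

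In the clamp and its loader, 3 of 6 members were called higher over the day and none lower, and the 3 other scalings gave 2 or 3 higher and none lower. Of all genes 15.5% were called higher over the day, and of genes with a mean above 5, 25.0%. Rfc4, a small subunit of the loader, read 7.37 and 7.47 at GD8.5, 7.49, 7.54, 7.59 and 7.64 at GD9.0, and 7.84, 7.81, 7.93 and 7.94 at GD9.5. No stages overlapped, and the whole rise was 1.37-fold (log2 0.46 ± 0.07, limma adjusted p = 0.000395), of which 0.32 ± 0.06 fell in the second step (limma adjusted p = 0.00169). A second Rfc4 probe set rose by 0.34 over the day and was called. Rfc3 read 7.31 and 7.17 at GD8.5, 7.29, 7.38, 7.45 and 7.34 at GD9.0, and 7.56, 7.46, 7.44 and 7.54 at GD9.5; its rise of 0.26 ± 0.07 (limma adjusted p = 0.0173) was not called without GD8.5 replicate 4. Pcna, the clamp itself, rose by 0.17, from 11.2 at GD8.5 to 11.4 at GD9.5 in the mean, with a call that was lost without any 1 of the 6 arrays of these stages.

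Rfc5, another loader subunit, did not share the rise: it was 7.25 to 7.31 at GD8.5 and 7.19 to 7.25 at GD9.5, with a change of -0.07 (95% interval -0.20 to 0.07). Within each array, Rfc4 minus Rfc5 was 0.22 to 0.46 at GD9.0 and 0.59 to 0.73 at GD9.5, a shift of 0.28. Rfc1, the large subunit, and Rfc2 were not called, at 0.14 and 0.13 over the day. The second probe set of Rfc1, nearly as bright as the first, fell by 0.19 in the last step and was called.

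Among polymerases and primase, 2 of 6 were called higher over the day and none lower. This stands beside 15.5% of all genes and 25.0% of genes with a mean above 5 called higher. Centring on array medians gave 3 higher and 0 lower, centring on probe sets above background 2 higher and 1 lower, and a further quantile normalization 3 higher and 1 lower. Pola1, the catalytic subunit of polymerase alpha, read 6.60 and 6.63 at GD8.5, 6.69, 6.71, 6.74 and 6.69 at GD9.0, and 7.01, 6.92, 6.99 and 7.18 at GD9.5. The GD9.5 arrays stood above all others, GD9.5 replicate 4 highest, and the last step was 0.32 ± 0.06 (1.25-fold, limma adjusted p = 0.00235). The rise over the day was 0.41 ± 0.07 (limma adjusted p = 0.00121). Prim2 rose in the first step instead, from 6.66 and 6.60 at GD8.5 to 6.98, 6.79, 6.84 and 6.95 at GD9.0, and stood at 6.88, 6.92, 6.97 and 6.95 at GD9.5. This step was 0.26 ± 0.07 (limma adjusted p = 0.0286; lost without GD8.5 replicate 3 or 4 or GD9.0 replicate 1 or 4), and the change over the day 0.30 ± 0.07 (limma adjusted p = 0.00678; lost without GD8.5 replicate 4).

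Pola2, the regulatory partner of Pola1, was called in no comparison: its first step was 0.24 ± 0.07 (limma adjusted p = 0.0527) and its second -0.10 ± 0.06. Within each array, Pola1 minus Pola2 was 0.47 to 0.70 at GD9.0 and 0.87 to 1.13 at GD9.5, a shift of 0.42. Prim1, the catalytic subunit of primase, changed by 0.17 over the day without passing the threshold (limma adjusted p = 0.0596). The catalytic subunits of polymerases delta and epsilon, Pold1 and Pole, changed by -0.21 and -0.04 and were not called.

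Of RPA and the enzymes that finish lagging strands, Lig1 alone was called by its brightest probe set, from GD9.0 to GD9.5. The changes of Rpa1, Rpa2 and Rpa3 over the day were -0.01, 0.08 and 0.11. A second Rpa2 probe set, at a level of 6.93, fell by 0.24 from GD9.0 to GD9.5 and by 0.46 in the contrast of steps, both called. Fen1, the flap endonuclease, read 8.71 and 8.69 at GD8.5, 8.73, 8.67, 8.75 and 8.69 at GD9.0, and 8.71, 8.75, 8.68 and 8.62 at GD9.5; its change over the day was -0.01 with a 95% interval of -0.14 to 0.12. Lig1, which seals the remaining nick, was 7.75 to 7.89 at GD9.0 and 7.99 to 8.05 at GD9.5. It rose by 0.20 ± 0.05 (limma adjusted p = 0.0155) in that step.

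The 2 subunits of ribonucleotide reductase differed. Rrm1, the large subunit, read 8.0 and 8.02 at GD8.5, 8.23, 8.21, 8.20 and 8.23 at GD9.0, and 8.55, 8.56, 8.43 and 8.52 at GD9.5. Each stage lay above the one before, and the rise over the day was 1.42-fold (log2 0.51 ± 0.06, limma adjusted p = 5.77e-05), the largest change of any member. The second step, 0.30 ± 0.05, was called (limma adjusted p = 0.000873); the first, 0.21 ± 0.06 (limma adjusted p = 0.0394), was called with all arrays and not without any 1 of 8 of the 10, the exceptions being GD9.5 replicates 2 and 3. A second Rrm1 probe set of like brightness put more of the rise in the first step (0.33, called) and less in the second (0.09, not called).

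Rrm2, the small subunit, read 10.14 and 10.10 at GD8.5, 10.22, 10.22, 10.13 and 10.15 at GD9.0, and 10.20, 10.28, 10.16 and 10.22 at GD9.5. The stages overlapped at the last step, and no change was called. Within each array, Rrm1 minus Rrm2 was -2.01 to -1.92 at GD9.0 and -1.73 to -1.65 at GD9.5, a shift of 0.27. The 3 probe sets of Rrm2 disagreed: 1448226_at, at 9.61, was as flat as the brightest, while 1416120_at, at 8.78, rose by 0.34 to GD9.0 and fell by 0.60 to GD9.5, both called. Within each array, the brightest set minus 1416120_at was 1.01 to 1.15 at GD9.0 and 1.66 to 1.80 at GD9.5, a shift of 0.63.

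**Figure D4:**
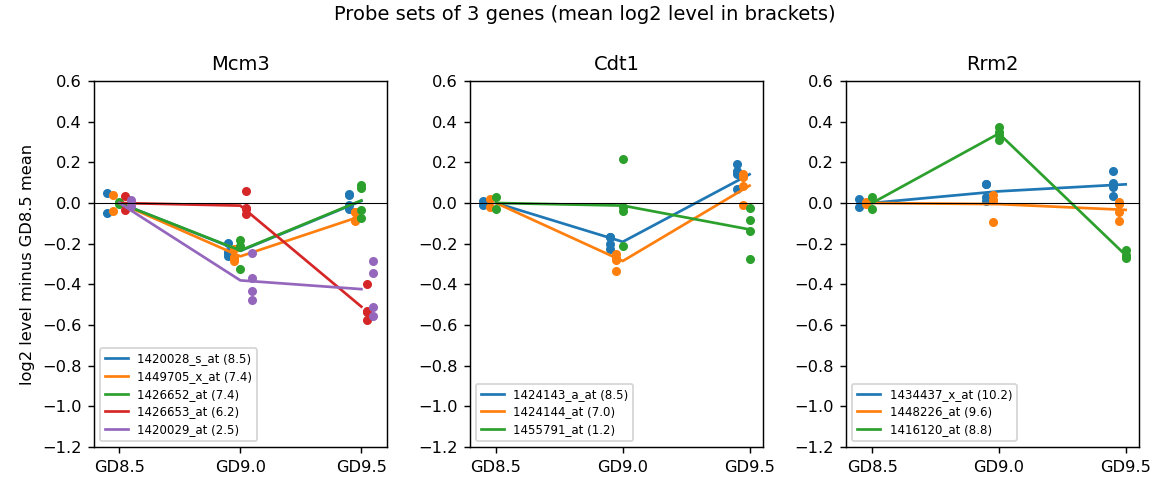
Log2 level of every probe set of Mcm3, Cdt1 and Rrm2 minus its own GD8.5 mean, per array (points) and as stage means (lines), with the mean log2 level of the probe set in brackets. At GD9.5, 1426653_at of Mcm3 lies 0.51 below its GD8.5 mean while 1420028_s_at is 0.01 above its own, and 1416120_at of Rrm2 lies 0.60 lower at GD9.5 than at GD9.0.

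The 2 half-day steps were set against each other by subtracting the first change from the second. Cdt1 and Mcm3 turned upward, and Gins4 and Mcm4 turned downward. Thus 2 members were called higher and 2 lower, 10% of the 40, beside 11.6% of all genes (6.97% higher, 4.67% lower) and 20.0% of genes with a mean above 5. The difference was 0.52 ± 0.09 for Cdt1 (limma adjusted p = 0.00342), 0.48 ± 0.09 for Mcm3 by its brightest probe set (limma adjusted p = 0.00546), -0.39 ± 0.11 for Gins4 (limma adjusted p = 0.0431) and -0.30 ± 0.08 for Mcm4 (limma adjusted p = 0.0384). Both steps share the GD9.0 arrays. The calls of Cdt1 and Mcm3 held in all 10 fits without 1 array; that of Gins4 held only without GD9.0 replicate 2 or GD9.5 replicate 3, and that of Mcm4 in none. Centring on array medians left 2 higher and 0 lower (6.82% and 3.72% of all genes). A further quantile normalization gave 2 higher and 4 lower (7.15% and 5.35%). The dip of Cdt1 and Mcm3 at GD9.0 has the same order of stages as the actin control difference and the 18S level given above, whose part in it was not tested.

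Other genes of the pathway were described in the same way, and the changes above 1 on the log2 scale were those of Cdk6, Rb1, Tfdp2 and Cdkn1c. Of 78 further pathway genes that were measured, 15 were called higher and 2 lower from GD8.5 to GD9.0, 24 and 9 from GD9.0 to GD9.5, and 29 and 7 over the day. Either way, 21.8%, 42.3% and 46.2% of them were called, beside 13.5%, 24.3% and 28.6% of all genes. These shares were near those of genes with a mean above 5 (20.6%, 43.4% and 44.9%). The median size of a change of the 78 genes over the day was 0.188, against 0.132 for the 40 members. It was 0.145 for all genes and 0.180 for genes with a mean above 5. By list this median ranged from 0.087 for checkpoint genes to 0.428 for genes of deoxynucleotide supply. Among 29 regulators of S phase entry, 14 were called higher and 1 lower (Fbxo5, -0.21) from GD9.0 to GD9.5, and 15 higher and 0 lower over the day. Of all genes 14.1% were higher and 10.3% lower in that step, and 15.5% and 13.1% over the day. Of genes with a mean above 5 the shares were 22.7% and 20.7%, and 25.0% and 19.9%. Cdk6, a G1 kinase, rose by 1.43 in the last step and 1.68 over the day. Rb1, the retinoblastoma protein that binds E2F, rose by 0.94 and 1.33, and Tfdp2, an E2F partner, by 1.10 over the day. Cdkn1c, the inhibitor p57, fell by 0.99 to GD9.0 and rose by 1.06 to GD9.5. The difference between its steps was 2.04, and that of E2f8 0.94. Ccnd2 rose by 0.35 in the first step.

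Accessory subunits and fork proteins were called higher in 8 and lower in 3 of 24 cases over the day. In the second step the counts were 5 and 3 (3 and 5 after centring on probe sets above background). Of all genes 15.5% were higher and 13.1% lower over the day. In the second step the shares were 14.1% and 10.3% (11.8% and 13.1% after that centring). With a mean above 5, 25.0% of genes were higher and 19.9% lower over the day, and 22.7% and 20.7% in the second step. Clspn, which carries the checkpoint signal at forks, rose by 0.67, Pole3 of polymerase epsilon by 0.50 and the histone chaperone Asf1b by 0.42. Rnaseh2a (-0.35), Pold2 (-0.33) and Pole2 (-0.22) fell. All 3 of those that rose had already risen by GD9.0 (0.41, 0.35 and 0.38). Chtf8, of an alternative clamp loader, fell by 0.28 and then rose by 0.57, and Dscc1 of the same loader rose by 0.18 in the second step. Top1 was lower in the second step than in the first by a difference of -0.29.

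Of 8 genes of origin firing, 2 were called higher in the first step, 2 in the second and 3 over the day, and none lower in any of them. Centring on probe sets above background left none called in the second step. Of all genes 6.78%, 14.1% and 15.5% were called higher in these comparisons, and with a mean above 5, 12.5%, 22.7% and 25.0%. Cdc7, the kinase that phosphorylates MCM, rose by 0.39 over the day, Ticrr by 0.27 and Recql4 by 0.21, and Donson rose by 0.20 in the second step. Of 9 genes of deoxynucleotide supply, 3 rose and 3 fell over the day, where 15.5% of all genes were called higher and 13.1% lower. Thymidine kinase Tk1 (0.55), thymidylate synthase Tyms (0.43) and Dck (0.26) rose, while Samhd1, which degrades deoxynucleotides (-0.58), Dctd (-0.46) and Dtymk (-0.31) fell. In the second step Rrm2b (0.49), Dck (0.21) and Dut (0.20) rose, and Dctd (-0.54), Samhd1 and Shmt1 (both -0.39) were among the 4 that fell. In that step 14.1% of all genes were called higher and 10.3% lower. Of genes with a mean above 5 the shares were 22.7% and 20.7% in that step, and 25.0% and 19.9% over the day. Of 8 checkpoint genes only Rad1 was called, lower by 0.41 in the second step and also lower over the day (-0.40). Of all genes 10.3% were called lower in the second step and 13.1% over the day.

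Of 35 mitosis genes, 7 were called higher and 0 lower in the first step, and 3 higher and 7 lower in the second. Of all genes 6.78% were higher and 6.74% lower in the first step, and 14.1% and 10.3% in the second. Of genes with a mean above 5 the shares were 12.5% and 8.05%, and 22.7% and 20.7%. Over the day 9 mitosis genes were higher and 6 lower, or 5 and 8 after centring on probe sets above background. Of all genes 15.5% were higher and 13.1% lower over the day, or 12.6% and 17.5% after that centring. The contrast of steps was lower for 7 and higher for 0 of the mitosis genes, with a median of -0.17, against -0.02 for the 40 members and 0.003 for all genes. It was called lower for 4.67% and higher for 6.97% of all genes, and for 9.89% and 10.1% with a mean above 5. Mki67, a proliferation marker, rose by 0.54 over the day, Prc1 by 0.47 and Nusap1 by 0.45, while Anln (-0.36), Kif20a (-0.26) and Aurka (-0.24) fell. The summed linear level of these 35 genes was 9532 to 9576 at GD8.5, 9956 to 10111 at GD9.0 and 9661 to 9878 at GD9.5.

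**Figure D5:**
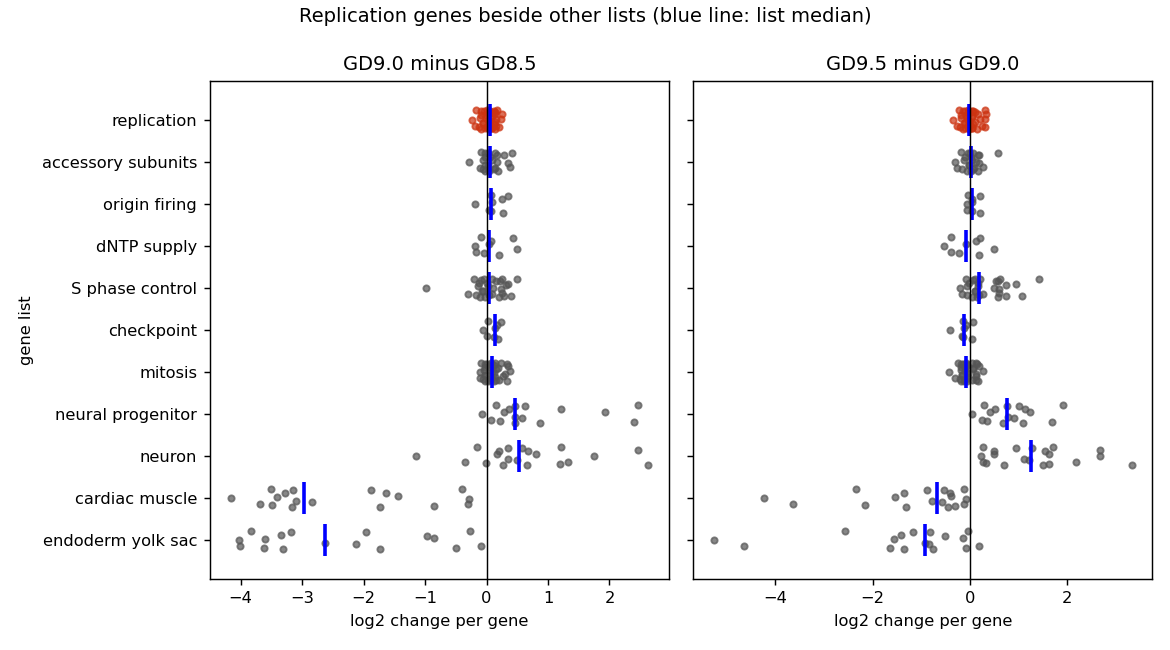
Log2 change of each gene (points) by list (rows) in the first and the second half-day step (panels), with the median of each list as a blue line; the 40 replication genes are red. Their points lie between -0.24 and 0.26 in the first step and -0.35 and 0.33 in the second, while cardiac muscle markers have medians of -2.98 and -0.67 and neuron markers 0.53 and 1.24.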

How the data were processed

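The 12 arrays measured messenger RNA in neural tubes at 3 stages. The authors deposited 1 table: 10 columns hold log2 values and 2 (GD8.5 replicates 1 and 2) hold intensity values on a linear scale, as the deposited values themselves show. Affymetrix Expression Console 1.2.1, RMA and GCRMA are named, per the submitters' processing notes, with no role or order, and their part in each column is not stated in those notes or in the labels. Sorted values of the log2 columns differed by at most 0.27, so they were taken as normalized across arrays. On GD8.5, log2 arrays had a slope of 1.01 and an offset of 4.13 (SD 0.26) against log2 of the linear ones, over probe sets above 5.

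Of 45101 probe sets, 64 were controls, 34945 named 1 gene, 932 several and 9160 none in GEO's platform annotation. The brightest single-gene probe set stood for each of 18193 genes. limma 3.58.1 in R 4.3.3 fitted a mean per stage over 10 arrays (7 residual degrees of freedom), with Benjamini-Hochberg adjustment over all genes and calls at an adjusted p below 0.05; the same fit ran on 45037 probe sets. Steps of the analysis were tested on simulated data. The number of arrays limits the precision.

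The members and gene lists were chosen with earlier results of these data known. Named with all values were members with the largest called changes (up to 5 a direction per stage comparison, 4 in the contrast of steps), Cdt1, Gmnn and members with opposed probe sets; of other pathway lists, up to 3 a direction per comparison; values of Mcm5, Fen1 and Rrm2 were added. Alternatives covered array choice, scaling, probe set choice, filters, the test and a replicate block.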

Additional observations from a re-analysis of the deposited data

Results flagged for a closer look

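In 80 groups of 4 arrays (40 genes at GD9.0 and GD9.5), 5 had an array far from the other 3 by Dixon's test, and chance alone flags about 1 group in 20. Mcm5 read 9.58 in GD9.0 replicate 2, against 9.62 in the other 3 arrays. Orc5 was also low in GD9.0 replicate 2, at 6.87 against 6.98 to 7.0. Orc3 was high in GD9.0 replicate 3, at 6.74 against 6.66. Cdc45 read 5.75 in GD9.5 replicate 4, against 5.83 to 5.85. Rpa1 read 9.18 in GD9.5 replicate 3, against 9.21 to 9.22.

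The change from GD9.0 to GD9.5 differed from the change from GD8.5 to GD9.0 for 4 members in the limma fit of the difference itself: Cdt1 by 0.52, Mcm3 by 0.48, Gins4 by -0.39 and Mcm4 by -0.30. The steps share the GD9.0 arrays.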

How the results depend on the processing

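Of 29 called changes of members, 10 kept their direction and call under every alternative run for them, of which 10 left out 1 array (23 in all, or 22 for the contrast of steps, where fitting only the stages compared gives no value): Cdt1 (second step and contrast of steps), Gins4 (second step), Orc1, Pola1 and Rfc4 (second step and whole day) and Rrm1 (whole day). The other 19 lost the call under at least 1, and 5 of them reversed. For the second step, leaving out either GD8.5 array and fitting only the stages compared are the same fit. The different alternatives for that step are therefore fewer than 23. Counts below are members called higher and lower in the first step, the second step, the whole day and the contrast of steps, where they moved by over 1.5 times from 2 and 1, 6 and 7, 7 and 2, and 2 and 2. Brackets give the share of all genes tested that was called the same way under the same setting, except where 1 array was left out. The 12-array fit gave 4 and 2 in the first step (6.34% and 7.09%), 4 lower in the second (5.71%) and in the whole day (12.9%), and 0 lower in the contrast (2.34%). An adjusted p below 0.01 gave 0 and 0 (3.73% and 3.92%), 3 lower (6.07%), 4 and 1 (10.9% and 8.31%), and 0 lower (1.89%). Array weights gave 2 lower in the first step (7.29%). Centring on probe sets above background gave 1 higher in the first step (5.93%) and 9 lower over the day (17.5%). A trended and robust variance gave 6 and 2 (9.33% and 8.57%), 10 higher (16.0%), 13 and 9 (17.4% and 14.7%), and 4 and 6 (9.60% and 7.74%). Averaging the probe sets of each gene gave 1 higher in the first step (6.30%) and 8 lower over the day (13.2%). In the contrast it gave 1 and 5 (5.89% and 5.06%). Median centring gave 3 lower in the second step (8.10%), 1 lower over the day (10.6%) and 0 lower in the contrast (3.72%). Testing only genes above background gave 2 lower in the first step (9.93%), and 4 lower over the day (18.4%) and in the contrast (8.52%). Fitting only the stages compared gave 0 and 0 in the first step (5.44% and 5.68%), with fewer arrays in the fit. The probe set with the largest spread gave 2 lower in the first step (6.16%), 7 over the whole day (12.9%) and 5 in the contrast (5.15%). A further quantile normalization gave 4 lower in the contrast (5.35%). Without _s_at and _x_at probe sets, 5 were lower over the day (2300 of 17903 genes). Leaving out 1 array gave 0 to 2 higher and 0 to 1 lower in the first step, 6 to 7 and 3 to 7 in the second, 3 to 7 and 1 to 3 over the day, and 2 to 2 and 0 to 2 in the contrast. In those fits 3.46% to 6.60% of all genes were higher and 4.14% to 6.61% lower in the first step. In the second step the shares were 11.6% to 13.7% and 8.59% to 9.83%. Over the day they were 10.7% to 15.4% and 8.94% to 13.1%, and in the contrast 4.64% to 6.58% and 2.72% to 4.08%.

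Among changes called under the main setting or the alternative, the direction reversed only with another choice of probe set. These include 5 of the 29 called ones (Mcm3 and Mcm4 in the second step and the contrast, Orc2 in the second step); the others below were not called by the brightest probe set. With the largest-spread probe set, the second step was -0.50 for Mcm3, 0.021 for Mcm4, 0.21 for Orc2, 0.37 for Orc3, -0.19 for Rfc1 and -0.60 for Rrm2; the whole day was -0.51 for Mcm3, 0.38 for Orc4 and -0.26 for Rrm2; and the contrast was -0.48 for Mcm3 and 0.21 for Mcm4. With the mean of probe sets, Rrm2 was -0.20 in the second step and Mcm3 -0.20 over the day. The cause was not tested.

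No pairing of the arrays by replicate number was visible. Deviations of same-numbered arrays of different stages had correlations of -0.059 to 0.122, and those of differently numbered arrays -0.165 to 0.155. A replicate block gave 0 and 0 in the first step (5.39% and 5.05% of all genes), 4 lower in the second (9.75%) and 1 lower in the contrast (3.44%). All members exceeded the background level.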

Other observations

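The GD8.5 arrays deposited on a linear scale were set beside the log2 arrays after log2 and quantile normalization of all 12. Over the 40 members, GD8.5 replicates 1 and 2 differed from replicates 3 and 4 by -0.53 to 0.39 with a median of 0.036, and 11 members lay more than 0.2 apart, Fen1 (-0.53) and Rfc2 (-0.49) furthest below. The median SD of a member over the 4 GD8.5 arrays was 0.10, against 0.024 for replicates 3 and 4. These gaps are of the size of the stage changes themselves.

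With all 12 arrays on this scale, Cdt1 read 9.26, 9.25, 9.25 and 9.22 at GD8.5, 8.98 to 9.08 at GD9.0 and 9.29 to 9.46 at GD9.5, so the dip of the licensing factor at GD9.0 was also present with all 4 GD8.5 samples. Mcm3 by its brightest probe set read 9.43, 9.48, 9.32 and 9.23 at GD8.5 and 8.99 to 9.09 at GD9.0. Orc1 read 6.95, 7.04, 6.60 and 6.60 at GD8.5, 6.44 to 6.55 at GD9.0 and 6.12 to 6.14 at GD9.5. In that fit Cdt1 was called in both steps, at -0.21 (limma adjusted p = 0.0350) and 0.34 (limma adjusted p = 0.00218). Other members called in this fit and not with 10 arrays were Rfc2 (0.41 in the first step and 0.37 over the day), Pola2 (0.30 in the first step), Prim1 (0.21 and 0.24), and, over the day, Lig1 (0.33), Mcm4 (-0.20) and Gins4 (-0.26).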
